A study of Mus musculus with 6 samples.

Results

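Dbp, Tef and Hlf encode the PAR bZIP transcription factors, and Nfil3 encodes a bZIP repressor that competes with them for the same DNA sites. These 4 genes, of 23402 in the deposited expression table, were followed through the ileum of mice given dextran sodium sulfate (DSS). They were chosen by their FPKM values in this comparison, in which the activators and the repressor shifted in opposite directions between the genotypes, so the contrast is given for them as a description with no test. The table holds FPKM values, fragments scaled to transcript length and sequencing depth, which allow levels of different genes to be compared within a library.

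PAR bZIP proteins carry a proline- and acidic-rich domain and bind a palindromic element called the D-box as homodimers or heterodimers. NFIL3, also named E4BP4, binds the same element and lowers transcription from it. The core clock drives the pair in opposite phases: CLOCK and BMAL1 act on E-boxes of the activator genes, while the REV-ERB receptors repress Nfil3. In liver, kidney and intestine, PAR bZIP factors are known for the rhythm of detoxification and transport genes, and NFIL3 in the intestinal epithelium is known for lipid uptake and as a gene under STAT3 and REV-ERB control.

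RNA came from tissue labelled terminal ileum of 6 mice aged 6 weeks, taken on day 6 of DSS, a polysaccharide that injures the gut epithelium. All 6 animals carried Il17ra fl/fl alleles, which allow deletion of a subunit of the interleukin-17 receptor. The 3 mice labelled Il17rafl/fl;Atoh1-cre+ (Cre-positive, titled KO) also carried Cre driven by Atoh1, a gene of the secretory epithelial lineage, and their 3 littermates labelled Il17rafl/fl;Atoh1-cre- (Cre-negative, titled WT) lacked it. Only cells of the Atoh1 lineage are the target of such a deletion, while the RNA is from whole tissue, and in such bulk RNA fewer cells of a type and less RNA per cell cannot be told apart. No mice without DSS were analysed here, and the labels do not state the hour at which tissue was taken.

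Across the series, Il17ra was between 5.91 and 6.53 FPKM in the Cre-negative libraries and between 6.07 and 8.36 FPKM in the Cre-positive libraries, so it did not check the labels, and directions below are those of the libraries as labelled. Epithelial markers were high in all libraries (8 markers, summed 3669 to 4599 FPKM). Of the ileal enterocyte markers, Slc51a and Cubn were abundant, but Fabp6 stood at only 0.316 to 9.79 FPKM and Slc10a2, the ileal bile acid transporter, at 0.0669 to 1.94 FPKM. Both genes are known for high levels in terminal ileum, so the labelled segment remains in doubt. Every mouse was given DSS, so the parts of segment and of DSS in these values cannot be told apart. B cell markers stood apart in 2 libraries, summing to 103 and 127 FPKM over 13 genes in Cre-positive 1 and 2 against 17.9 FPKM in Cre-positive 3 and 11.8 to 23.5 FPKM in the Cre-negative libraries. By Xist and Ddx3y, Cre-negative 3, Cre-positive 2 and Cre-positive 3 were female and the other libraries male. The value of a single fragment, read from the smallest FPKM values, put the depth at 8260000 to 9560000 fragments per library. By limma on log2(FPKM + 1) values, 0 of 12695 genes tested reached an adjusted p of 0.05 (Benjamini-Hochberg), which is 0% of them, and 459 (3.62%) had an unadjusted p under 0.05.

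Dbp (D site of albumin promoter binding protein, ENSMUSG00000059824.12) was about 2-fold higher in the Cre-positive libraries. It was at 5.24, 3.59 and 4.25 FPKM in Cre-negative 1, 2 and 3 and at 8.07, 9.69 and 8.48 FPKM in Cre-positive 1, 2 and 3. The lowest Cre-positive library lay 2.83 FPKM above the highest Cre-negative one. The means were 4.36 ± 0.831 and 8.74 ± 0.841 FPKM (SD, n = 3 each), a ratio of 2.01 and a log2 fold change of 0.87 (SE 0.14), which the pseudocount of 1 makes smaller than the ratio. An estimated 62 to 157 fragments per library lie behind these values.

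The Dbp gene lies on the plus strand of chromosome 7 from 45705088 to 45710203 (GRCm38). Of its exonic bases, 539 also belong to exons of Sphk2, a sphingosine kinase gene on the opposite strand, and the labels do not say whether counting used strand. Sphk2 was at 26.4, 26.7 and 23.7 FPKM in the Cre-negative libraries and at 29.4, 26.8 and 28.5 FPKM in the Cre-positive ones (ratio 1.10). Its part in the Dbp values was not tested.

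Tef (thyrotroph embryonic factor, ENSMUSG00000022389.15) was the most abundant of the 3 activators in every library. Its values were 8.25, 6.99 and 10.5 FPKM in Cre-negative 1, 2 and 3 and 13.6, 13.8 and 11.1 FPKM in Cre-positive 1, 2 and 3. The groups did not overlap, but only 0.569 FPKM separated Cre-positive 3 from Cre-negative 3. By estimated fragments these libraries stood the other way, at 403 and 414. Median-of-ratios scaling divides each library by its median ratio to the geometric mean over libraries. With factors of 1.03 and 0.926, it puts Tef in Cre-positive 3 below Cre-negative 3, so the groups then overlap. The means were 8.59 ± 1.79 and 12.8 ± 1.50 FPKM (SD, n = 3 each), a ratio of 1.49 and a log2 fold change of 0.54 (SE 0.16). Tef lies on the plus strand of chromosome 15 from 81802421 to 81826863, and an estimated 290 to 569 fragments per library make it the best sampled of the 4 genes. Of its exonic bases, 193 also belong to exons of Gm17597 on the opposite strand, whose part in the Tef values was not tested.

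Hlf (hepatic leukemia factor, ENSMUSG00000003949.16) was the scarcest member and the one whose shift rested most on a single library. It stood at 0.964, 0.988 and 0.914 FPKM in the Cre-negative libraries and at 1.18, 2.20 and 1.28 FPKM in Cre-positive 1, 2 and 3. Cre-positive 2 was far above the rest, and the other Cre-positive libraries lay just above the Cre-negative range, with a gap of 0.192 FPKM. The means were 0.955 ± 0.0381 and 1.55 ± 0.559 FPKM (SD, n = 3 each), a ratio of 1.62 and a log2 fold change of 0.36 (SE 0.17), and the log2 fold change was 0.19 without Cre-positive 2. Hlf lies on the minus strand of chromosome 11 from 90336536 to 90390895, and its values rest on an estimated 46 to 109 fragments per library.

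Nfil3 (nuclear factor, interleukin 3 regulated, ENSMUSG00000056749.7), the repressor, was lower in the Cre-positive libraries. It was at 9.28, 10.4 and 8.47 FPKM in Cre-negative 1, 2 and 3 and at 6.00, 4.74 and 6.88 FPKM in Cre-positive 1, 2 and 3. The highest Cre-positive value lay 1.59 FPKM below the lowest Cre-negative value. The means were 9.37 ± 0.946 and 5.87 ± 1.08 FPKM (SD, n = 3 each), a ratio of 0.627 and a log2 fold change of -0.60 (SE 0.14). Nfil3 has 1 annotated transcript, on the minus strand of chromosome 13 from 52967209 to 52981073, no exon of another gene overlaps it, and its values rest on an estimated 84 to 198 fragments.

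**Figure D1:**
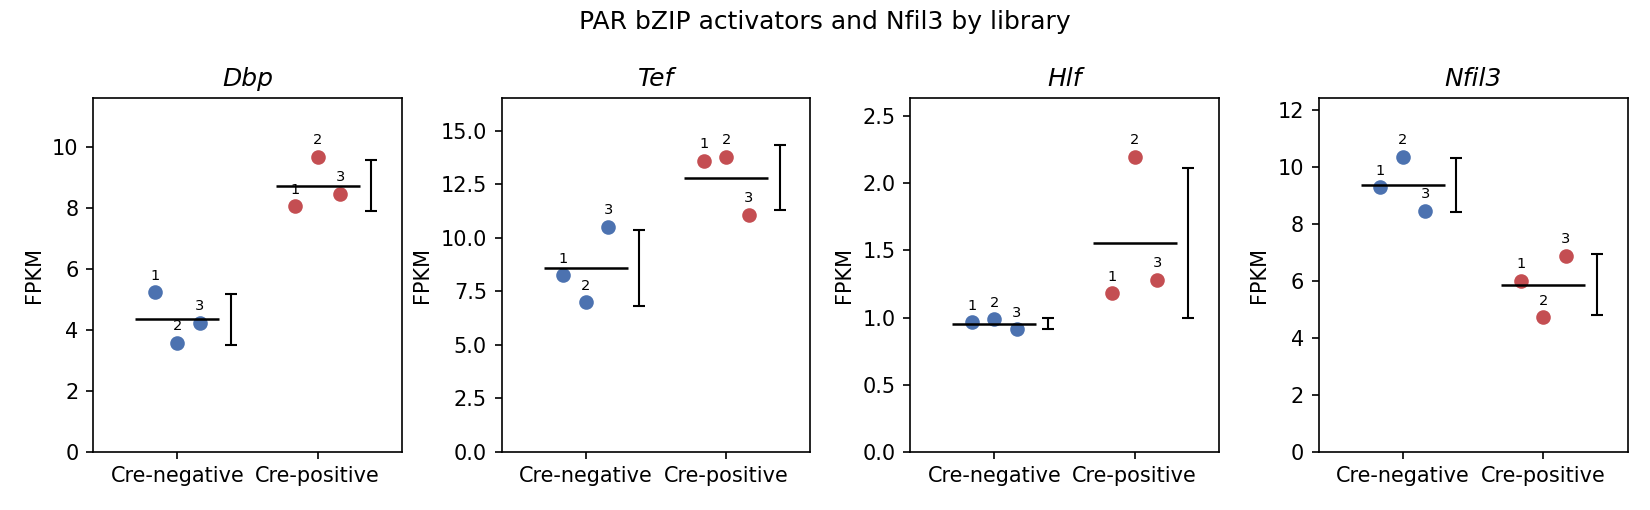
FPKM of Dbp, Tef, Hlf and Nfil3 (vertical axes from 0) in each library, numbered by replicate, with the group mean as a line and the SD (n = 3) as a bar. The activators sit higher and Nfil3 sits lower in the Cre-positive libraries, with the narrowest margins for Tef (0.569 FPKM) and Hlf (0.192 FPKM).

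Thus the deposited FPKM values of all 4 members did not overlap between the groups, 3 higher and 1 lower, which is the property they were chosen for. Among all genes tested, 8.37% did not overlap, 5.77% being higher and 2.6% lower, and nothing is read from the members' count. Because the groups do not overlap, any subset of the libraries keeps these sides, and the values by sex are given only as a description. Among males, Dbp was at 5.24 and 3.59 FPKM without Cre and at 8.07 FPKM with it, and Nfil3 at 9.28 and 10.4 FPKM against 6.00 FPKM. Among females, Dbp was at 4.25 FPKM against 9.69 and 8.48 FPKM, and Nfil3 at 8.47 FPKM against 4.74 and 6.88 FPKM. Each sex holds a single library of one genotype, so no spread can be given there.

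B cell marker sums were also higher in Cre-positive 1 and 2 than in the other libraries, and their part in the member values was not tested. With these 2 libraries left out, a step added once the values were known, the log2 fold changes moved from 0.87 to 0.83 for Dbp, from 0.54 to 0.35 for Tef, from 0.36 to 0.22 for Hlf and from -0.60 to -0.39 for Nfil3. Only Cre-positive 3 then stands for its group, and the choice of members fixes the direction of its values.

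The change of rank between Dbp and Nfil3 was the plainest contrast within libraries. Dbp stood below Nfil3 in all 3 Cre-negative libraries and above it in all 3 Cre-positive libraries. The ratio of Dbp to Nfil3 FPKM was 0.564, 0.346 and 0.502 in Cre-negative 1, 2 and 3 and 1.34, 2.05 and 1.23 in Cre-positive 1, 2 and 3. Tef stood above Nfil3 in Cre-negative 3 and in the 3 Cre-positive libraries, with ratios of 0.888, 0.675 and 1.24 against 2.27, 2.91 and 1.61. Hlf remained the lowest of the 4 in every library, at 0.0955 to 0.108 of Nfil3 without Cre and 0.186 to 0.464 with it. A ratio within a library is not moved by a scale factor common to that library.

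**Figure D2:**
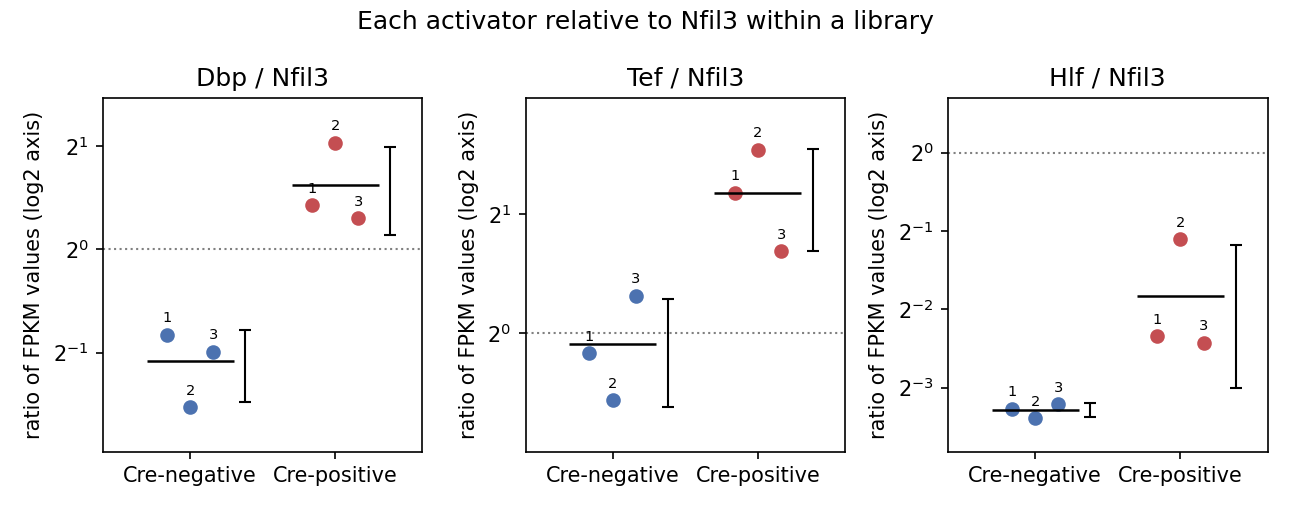
Ratio of the FPKM of each activator to that of Nfil3 in each library on a log2 axis, numbered by replicate, with the mean as a line, the SD (n = 3) as a bar and equality as a dotted line. Dbp to Nfil3 lies below 1 in the Cre-negative libraries (0.346 to 0.564) and above 1 in the Cre-positive libraries (1.23 to 2.05).

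Summed over the 3 activators, the level was 13.9 ± 2.11 FPKM in the Cre-negative and 23.1 ± 2.42 FPKM in the Cre-positive libraries (SD, n = 3 each). Relative to Nfil3 this sum was 1.56, 1.12 and 1.85 in Cre-negative 1, 2 and 3 and 3.81, 5.42 and 3.03 in Cre-positive 1, 2 and 3. The log2 ratio of the sum to Nfil3, with a pseudocount of 1, differed by 1.30 between the group means (0.52 ± 0.34 and 1.82 ± 0.38, SD, n = 3 each). The composition of the activator pool shifted less. Tef made up 57.1 to 67.1% of the summed FPKM without Cre and 53.2 to 59.5% with it, Dbp 27.1 to 36.3% and 35.3 to 40.7%, and Hlf 5.82 to 8.54% and 5.17 to 8.55%, and each of these ranges overlapped between the groups.

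The spread among libraries of one genotype differed from gene to gene. Hlf had the smallest coefficient of variation without Cre (3.99%) and the greatest with it (36.0%). The coefficients of variation were 19.1 and 9.61% for Dbp, 20.8 and 11.7% for Tef, and 10.1 and 18.4% for Nfil3, without and with Cre. Counting noise is part of these values, and Hlf without Cre rests on an estimated 46 to 53 fragments. With 3 libraries a genotype, they cannot be read as variation among animals. In the deposited FPKM values, the order of the libraries by Tef was the reverse of their order by Nfil3, also within each genotype. Of 6 pairs of libraries of the same genotype, all 6 had Tef and Nfil3 in opposite order. Dbp and Nfil3 were in opposite order in 4 of 6 pairs, Hlf and Nfil3 in 2 of 6, and Dbp and Tef in the same order in 4 of 6. The reversal was noticed after the values were seen and, with 3 animals a genotype, is given as a description. It also rests on the scaling. Tef was at 13.6 and 13.8 FPKM in Cre-positive 1 and 2, with an estimated 569 and 534 fragments. Under median-of-ratios scaling (factors 0.988 and 1.03), this pair has Tef and Nfil3 in the same order. So does the pair of Cre-negative 1 and 3 (factors 1.05 and 0.926).

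**Figure D3:**
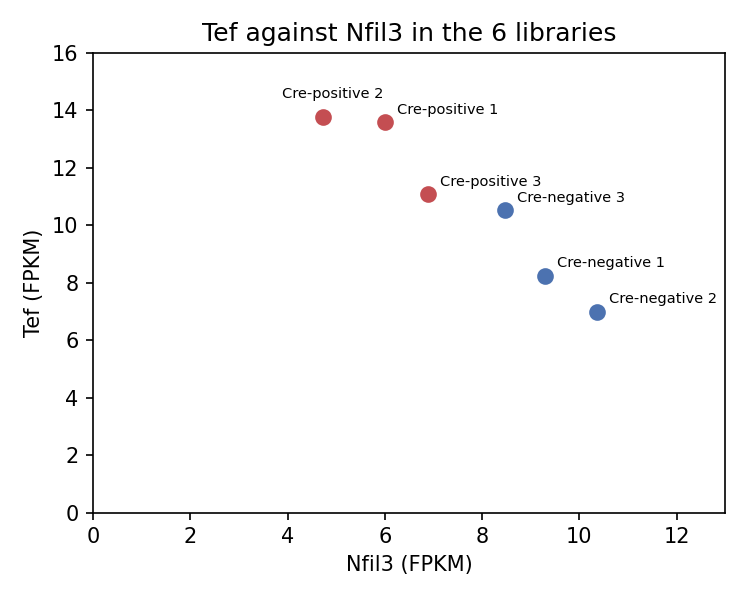
Tef against Nfil3 in the 6 libraries, both in FPKM on axes from 0, each point a library. From Cre-positive 2 (4.74 FPKM Nfil3, 13.8 FPKM Tef) to Cre-negative 2 (10.4 and 6.99 FPKM), each step up in Nfil3 is a step down in Tef. This holds for the deposited FPKM values and not under median-of-ratios scaling.

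The start regions of the members were searched for clock elements on both strands, in RefSeq windows of 300 bases (250 before and 50 after a transcript start, GRCm38.p6). All 4 members matched, Tef with 2 windows. The motifs were the E-box CACGTG, the D-box as TTATGTAA or TTATGCAA, the cAMP response element TGACGTCA, and AGGTCA, a motif shared by many nuclear receptors that include the ROR and REV-ERB proteins. Over all 32851 windows they occurred in 7.15, 1.66, 1.79 and 16.3%. Both Tef windows held an E-box, Hlf held a cAMP response element and Nfil3 held AGGTCA on its other strand, while Dbp held none of the 4 and no member held either D-box. A match is only a run of letters, and elements outside these windows were not searched. The E-boxes of both Tef starts and the receptor motif of Nfil3 are shown in 30 bases each on the gene's strand, with the motif in capitals. The first start is that of the first of the 2 Tef windows. The stretch at that start and the Nfil3 stretch overlap an annotated exon of their own gene, and the stretch at the other Tef start does not.
Tef, first start, chr15:81802534-81802563, plus strand: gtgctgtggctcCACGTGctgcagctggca
Tef, other start, chr15:81811264-81811293, plus strand: cacctggcccagCACGTGtctacatcgttt
Nfil3, chr13:52981034-52981063, minus strand: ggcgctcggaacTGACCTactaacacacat

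For Dbp, Hlf and Nfil3, the part of the window before any annotated exon of the gene is shown, because it holds the Hlf element (capitals) just before the start and shows the base composition of the repressor gene beside that of the activators.
Dbp, chr7:45704997-45705087, plus strand: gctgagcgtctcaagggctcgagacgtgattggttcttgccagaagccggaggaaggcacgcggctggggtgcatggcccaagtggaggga
Hlf, chr11:90390918-90391167, minus strand: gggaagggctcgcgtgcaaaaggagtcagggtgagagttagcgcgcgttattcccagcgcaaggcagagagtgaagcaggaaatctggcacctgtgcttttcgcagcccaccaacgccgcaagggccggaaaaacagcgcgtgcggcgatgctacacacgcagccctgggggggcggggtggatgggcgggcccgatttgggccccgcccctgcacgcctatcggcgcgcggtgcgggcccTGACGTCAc
Nfil3, chr13:52981074-52981289, minus strand: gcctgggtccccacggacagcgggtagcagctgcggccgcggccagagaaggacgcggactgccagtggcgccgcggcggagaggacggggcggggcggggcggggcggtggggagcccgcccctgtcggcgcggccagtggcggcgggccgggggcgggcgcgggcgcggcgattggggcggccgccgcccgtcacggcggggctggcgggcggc

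G and C made up 81.7% of the Nfil3 window, more than in 99.4% of all windows, against 60.3% for Dbp, 64.0 and 62.0% for Tef, 67.3% for Hlf and a median of 52.7% over all windows.

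Among the other genes of the clock, 18 of 21 list members were tested and 0 passed the threshold in either direction (limma, adjusted p of 0.05). The loop works by BMAL1 (Arntl) with CLOCK or NPAS2 activating the Per, Cry and Nr1d genes, whose products feed back. At an unadjusted p under 0.05, 1 clock gene was higher and 1 lower, against 2.54 and 1.07% of all genes tested. Estimates of 11 of the 18 were above 0 and their median log2 fold change was 0.12, beside 58.4% above 0 and a median of 0.03 over all genes tested.

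Arntl was at 14.7, 16.3 and 15.8 FPKM in the Cre-negative and at 13.4, 11.8 and 12.5 FPKM in the Cre-positive libraries, without overlap (log2 fold change -0.29, SE 0.09, limma adjusted p = 0.998). Npas2, the partner that can stand in for CLOCK, was at 9.36, 13.9 and 11.6 FPKM against 11.2, 7.36 and 7.48 FPKM, with overlap (log2 fold change -0.39). Nr1d2, which encodes REV-ERB beta, was at 19.0, 16.2 and 19.4 FPKM against 20.9, 21.1 and 20.9 FPKM, a narrow difference without overlap (log2 fold change 0.20). Nr1d1, which encodes REV-ERB alpha, had a log2 fold change of 0.19 with overlap, Cre-positive 1 alone being high at 50.9 FPKM.

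Per3, a period gene and a D-box gene by its start region, was at 2.15, 1.52 and 2.19 FPKM in the Cre-negative and at 2.67, 4.10 and 2.90 FPKM in the Cre-positive libraries (log2 fold change 0.51, SE 0.17, adjusted p = 0.998). Its window held TTATGTAA at 2 places, and windows with more than 1 D-box numbered 16 of 32851. Per1 held TTATGCAA and was at 4.90, 8.04 and 12.1 FPKM against 7.28, 15.7 and 11.8 FPKM, overlapping widely. These were the only D-box matches among the 16 clock genes with a window, and the D-boxes are shown in capitals.
Per3, chr4:151044805-151044881, minus strand: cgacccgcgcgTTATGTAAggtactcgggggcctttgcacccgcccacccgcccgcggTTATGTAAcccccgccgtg
Per1, chr11:69098914-69098943, plus strand: agggcctggcaTTATGCAAcccgcctccca

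**Figure D4:**
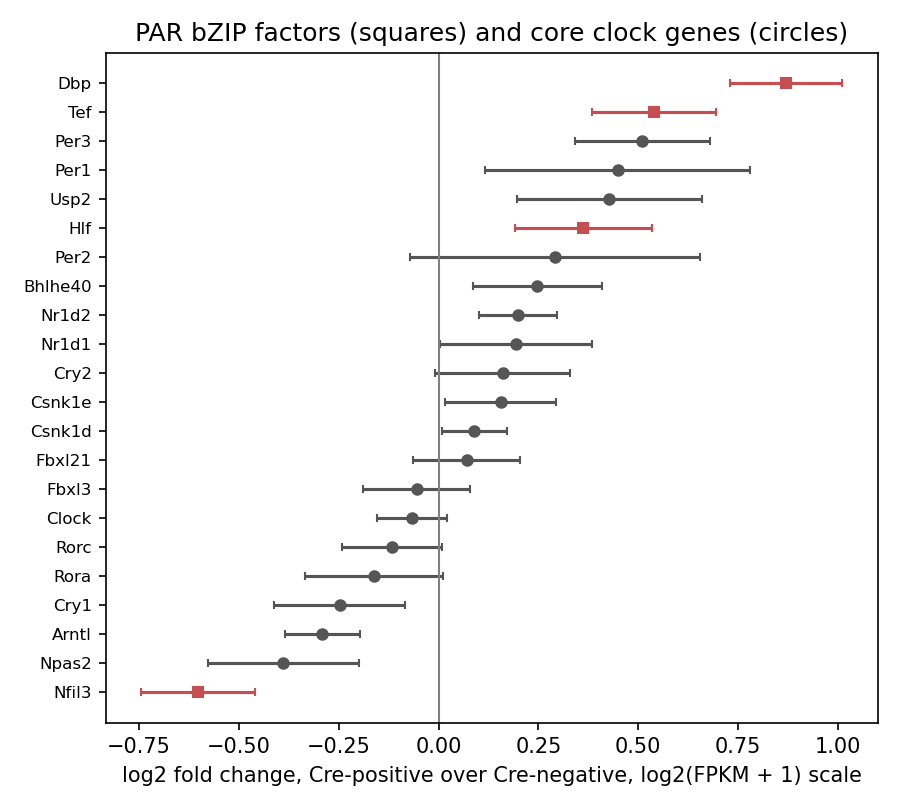
Log2 fold change (horizontal axis, Cre-positive over Cre-negative, log2(FPKM + 1) scale) with its SE from limma for the 4 members (squares) and the 18 clock genes tested (circles). Dbp (0.87) and Nfil3 (-0.60) stand at the ends, but the members were chosen for their shifts in this contrast. Per3 (0.51), Per1 (0.45) and Usp2 (0.43) lie between Tef (0.54) and Hlf (0.36). The lowest clock genes are Npas2 (-0.39), Arntl (-0.29) and Cry1 (-0.25), all nearer to 0 than Nfil3.

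Genes described elsewhere as driven by PAR bZIP factors, mostly in liver and kidney, were measured next. Of 18 such genes, 12 were tested and 0 passed the threshold, and 0 had an unadjusted p under 0.05 in either direction. Their median log2 fold change was 0.07 with 7 of 12 estimates above 0, beside a median of 0.03 and 58.4% above 0 over all genes tested. Por, the electron donor of microsomal cytochromes P450, was at 35.9, 39.1 and 36.9 FPKM against 45.3, 44.0 and 39.6 FPKM, and Alas1, the first enzyme of heme synthesis, at 20.5, 19.5 and 17.3 FPKM against 23.9, 20.7 and 22.2 FPKM. Both were higher without overlap, by log2 fold changes of 0.20 and 0.21 (limma adjusted p = 0.998 for each). Lpl, lipoprotein lipase, had a log2 fold change of 0.27 with overlap, and Acot4, an acyl-CoA thioesterase, one of -0.23 without overlap. Among all genes tested, 5.77% were higher and 2.6% lower without overlap. Cyp3a11, a cytochrome P450 gene of drug metabolism, had an estimate of the opposite sign to Dbp with a wide error (log2 fold change -1.34, SE 0.77). It was at 87.0, 143 and 239 FPKM in the Cre-negative and at 193, 51.7 and 17.6 FPKM in the Cre-positive libraries, overlapping widely.

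Cyp2b10, a cytochrome P450 gene of drug metabolism, holds a D-box in its window (TTATGCAA on its other strand) but was at 54.2, 56.4 and 71.2 FPKM in the Cre-negative and at 67.2, 49.7 and 27.3 FPKM in the Cre-positive libraries. The ranges overlapped and the estimate had the opposite sign to Dbp (log2 fold change -0.41, SE 0.29). The same letters stand in the windows of Cyp2a4 and Cyp2a5, of which Cyp2a4 was listed at 0 in all 6 libraries. The element of Cyp2b10 is shown in capitals.
Cyp2b10, chr7:25897589-25897618, plus strand: aacagctgaagTTGCATAActgagtggaga

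Lipid uptake and storage genes, the class NFIL3 is known for in this epithelium, had estimates of both signs. Of 11 genes 10 were tested, 0 passed the threshold, and 8 of 10 estimates were below 0 (median log2 fold change -0.13). After rescaling to an equal sum, the median was -0.015 for this list and 0.13 for all genes tested. Quantile normalization gave -0.017 and 0.0017. Scd1, a fatty acid desaturase, was at 11.5, 12.9 and 16.7 FPKM against 18.8, 32.0 and 25.9 FPKM (log2 fold change 0.84, SE 0.20, unadjusted p = 0.00361, limma adjusted p = 0.998). Fabp4, a fatty acid binding protein, was at 44.8, 52.0 and 62.9 FPKM against 34.2, 39.8 and 35.0 FPKM (log2 fold change -0.53, SE 0.14, unadjusted p = 0.00494, limma adjusted p = 0.998). These 2 genes of 10, 1 on each side, did not overlap between the groups, beside 8.37% of all genes tested. Cd36, a fatty acid transporter, was at 23.9, 27.2 and 38.4 FPKM against 41.2, 22.2 and 16.8 FPKM. Fabp2, the intestinal fatty acid binding protein gene, and Cidec, a lipid droplet gene, had log2 fold changes of -0.33 and -0.35 with overlap. Fabp4 and Cidec are also adipocyte genes, and all 6 adipocyte markers tested had estimates below 0, 3 of them with an unadjusted p under 0.05. Over all genes tested, 1.07% were lower at that p, and 58.4% of estimates were above 0. Summed over 7 adipocyte markers, levels were 85.4 to 207 FPKM without Cre and 76.0 to 85.7 FPKM with it, no marker was at 0 in all libraries, and the part of adipocytes in these values was not tested.

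Transcripts of the cytokine genes in the IL-22 and STAT3 axis were near the floor, which does not measure the strength of the signals. Il6 and Il23a were at most 0.119 and 0.0962 FPKM. Il22 was listed above 0 only in Cre-negative 1 and Cre-positive 1, at 0.108 and 0.110 FPKM. Of 13 genes of the IL-22 and STAT3 axis, 9 were tested and 0 passed the threshold. Their median log2 fold change was -0.06 with 4 of 9 estimates above 0, beside a median of 0.03 and 58.4% above 0 over all genes tested. After rescaling to an equal sum, the median was 0.05 for this list and 0.13 for all genes tested. Socs3, a feedback inhibitor induced by STAT3, was at 8.98, 33.4 and 16.9 FPKM in the Cre-negative and at 11.3, 10.3 and 7.40 FPKM in the Cre-positive libraries. It overlapped between the groups, Cre-negative 1 lying below Cre-positive 1 and 2. Reg3b and Reg3g, antimicrobial lectin genes of the same axis, were abundant, at 3141 to 9184 and 1150 to 4438 FPKM. Both overlapped between the groups, with log2 fold changes of -0.86 for Reg3b (SE 0.37) and -0.81 for Reg3g (SE 0.36). Il22ra2, which encodes a soluble inhibitor of IL-22, was the axis gene with the smallest p value (log2 fold change 0.61, unadjusted p = 0.0407, limma adjusted p = 0.998). It was at 1.81, 1.08 and 1.23 FPKM against 2.89, 3.79 and 1.49 FPKM, with overlap. Its highest values were in Cre-positive 1 and 2, the libraries rich in B cell genes, and Cre-positive 3 lay within the Cre-negative range. Il6ra, a receptor gene, had an estimate of 0.26 without overlap.

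The C/EBP factors, bZIP relatives whose binding sites resemble the D-box, had small estimates apart from Cebpd and Ddit3. Of 6 genes 5 were tested and 0 passed the threshold (median log2 fold change -0.08). After rescaling the libraries to an equal sum, the median of these genes was 0.03, beside 0.13 over all genes tested. Cebpa, Cebpb and Cebpg had log2 fold changes of -0.05, 0.01 and -0.08, and Cebpd one of -0.19. Ddit3, the stress-induced member CHOP, was at 9.94, 8.04 and 12.7 FPKM against 7.73, 7.73 and 5.91 FPKM (log2 fold change -0.45, SE 0.17, unadjusted p = 0.0309, limma adjusted p = 0.998).

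NFIL3 is also needed for natural killer and innate lymphoid cells, and Nfil3 is expressed in several immune cells. Over 14 markers of these cells, sums were 117 to 126 FPKM without Cre and 95.4 to 139 FPKM with it, and no marker was at 0 in all libraries. Gzma (41.8 to 80.8 FPKM) and Id2 (21.0 to 28.5 FPKM) were the largest parts of these sums, and Eomes was at 0 in some libraries. All 8 tested markers overlapped between the groups. Macrophage markers (8 genes) summed to 192 to 215 FPKM without Cre and 191 to 240 FPKM with it, smooth muscle markers (7 genes) to 638 to 851 FPKM and 533 to 691 FPKM, and enteric neuron and glia markers (8 genes) to 11.6 to 16.1 FPKM and 12.1 to 14.3 FPKM. Plasma cell (5 genes), T cell (7 genes), secretory lineage (7 genes) and fibroblast and endothelial (7 genes) sums also overlapped between the groups. The part of these cell types in the member values was not tested.

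The genes whose levels most resembled those of the members were found by Pearson correlation over the 6 libraries on the log2(FPKM + 1) scale, among 11945 candidates. These correlations include the difference between the groups and are given with no p. Most like Dbp were Hscb, a mitochondrial iron-sulfur cluster co-chaperone gene (r = 0.992), Slc25a27 (0.989), Scai (0.973), Lnpep (0.972) and Atg16l2 (0.971). Their differences were smaller than that of Dbp, with log2 fold changes of 0.05 for Lnpep to 0.35 for Atg16l2. Hscb was at 9.77, 8.44 and 8.69 FPKM in the Cre-negative and at 11.3, 11.7 and 11.3 FPKM in the Cre-positive libraries. Most like Nfil3 were Akirin1 (r = 0.988), the acid ceramidase gene Asah1 (0.977), the R-spondin receptor gene Lgr4 (0.976), Tlcd1 (0.956) and the acyl-CoA binding protein gene Dbi (0.953). Asah1 had the greatest difference of these, at 35.6, 34.3 and 31.2 FPKM against 25.1, 22.6 and 26.8 FPKM (log2 fold change -0.43).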

How the data were processed

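RNA of 6 libraries was sequenced by the submitters. Per the submitters' processing notes, reads were handled with STAR, Trimmomatic and FastQC, files with SAMtools and bedtools, and abundance with Cuffnorm and Cufflinks on GRCm38 (mm10). Versions and settings were not stated. The authors deposited 1 table of FPKM values. Groups and replicate numbers come from the labels, which name 3 mice per genotype. The members and gene lists were chosen with earlier results of these data known.

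The test covered 12695 genes averaging 1 FPKM or more on log2(FPKM + 1), by limma (intensity trend, two-sided, Benjamini-Hochberg, threshold 0.05). Members are described without a test. Named genes are the members, the 4 list genes with the smallest p, the 5 genes most correlated with Dbp and with Nfil3 (predicted loci left out), and list or marker genes chosen after their values were seen. Of 165 list entries, 3 were found under an older symbol. Fragments were estimated from the step of low values in single-transcript genes of at least 2 kb and the longest GENCODE M21 transcript. They cover counting only. Alternatives were pseudocounts, filters, scalings, limma options, the replicate number as a block and each library left out. Scripts ran in Python 3.11.15 (numpy 2.4.6, pandas 2.3.3) and in R 4.3.3 with limma 3.58.1.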

Additional observations from a re-analysis of the deposited data

How the results depend on the processing

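The log2 fold changes of Dbp, Tef, Hlf and Nfil3 kept their sign under every alternative run, ranging from 0.56 to 1.11, from 0.35 to 0.78, from 0.13 to 0.60 and from -0.83 to -0.39. The log2 ratio of summed activators to Nfil3 differed by 0.95 to 1.48. The members were chosen for these opposite shifts, and their deposited FPKM values do not overlap between the groups, so the kept signs are a description and no check. Under median-of-ratios scaling Tef did overlap, Cre-positive 3 lying below Cre-negative 3. Hlf gave no value with a filter of 5 FPKM. A pseudocount of 5 gave 0.56 for Dbp, 0.13 for Hlf and -0.40 for Nfil3, and a pseudocount of 0.1 gave 0.60 for Hlf, since the pseudocount weighs most on low values. Array weights gave 1.11 for Dbp, 0.78 for Tef and -0.83 for Nfil3, a median of 0.0071 for the clock list and 1 lipid gene past the threshold, and without the 2 libraries rich in B cell genes (an added setting) Nfil3 was at -0.39. That setting put the medians of the clock, IL-22 and STAT3 and C/EBP lists at 0.0021, -0.32 and -0.42. Rescaling to an equal sum moved the median of all genes tested from 0.03 to 0.13 and that of the clock list to 0.23, with Dbp at 0.97 and Nfil3 at -0.50. This setting multiplies each library to one common sum. FPKM sums were 531305 to 601242 in the Cre-negative and 494907 to 533796 in the Cre-positive libraries. With each library left out in turn, the IL-22 and STAT3 median ranged from -0.26 without Cre-positive 1 to 0.092 without Cre-negative 3. The cause of these shifts, the pseudocount and the rescaling apart, was not tested.

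The count of genes past the threshold, 0 in the report, was 2 with a pseudocount of 0.1, 2 with one of 5, 24 with array weights, 2 when libraries were rescaled to an equal sum, 4 without the 2 libraries rich in B cell genes, and 0 to 41 with each library left out, 41 of them without Cre-positive 3. With the replicate number as a block it was 1. Same-numbered libraries did not deviate together (correlations of -0.13, 0.03 and -0.11 over genes), and those with different numbers ranged from -0.02 to 0.14. With 3 libraries a genotype, these values cannot tell whether the numbers pair the animals. With a sex term, added once the values were known, the log2 fold changes were 0.85 for Dbp and -0.56 for Nfil3. Low fragment numbers limit Hlf and Dbp most.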
